A study of Mus musculus with 14 samples.

Results

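The 10 genes described here belong to the NRF2 pathway and were followed in mouse kidney after injection of a protein nanocage: Nfe2l2, Keap1, Nqo1, Gclc, Gclm, Txnrd1, Srxn1, Slc7a11, Prdx1 and G6pdx. They were picked by symbol, as textbook regulators and targets of the pathway. The rule uses no measured value, but the choice was made with earlier results of these data known. All 10 were among the 24421 genes of the count table, and 9 carried enough counts to be tested. Slc7a11 did not.

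NRF2, the product of Nfe2l2, is a transcription factor that switches on genes against oxidants and reactive chemicals. In resting cells KEAP1 binds NRF2 and hands it to a ubiquitin ligase for destruction, and oxidants that modify KEAP1 let NRF2 build up and enter the nucleus. There it pairs with small MAF proteins on antioxidant response elements near genes of glutathione synthesis, the thioredoxin system, NADPH supply and quinone detoxification. The pathway is controlled largely through the stability of the NRF2 protein, so the transcript levels given here do not measure NRF2 activity directly.

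RNA sequencing was done on whole kidneys of male C57BL/6J mice. The series title describes protein nanocages meant to reach the proximal tubule through the glomerular filter, and the labels leave the names Dps and MnDps unexplained. Mice received MnDps (kidneys taken at 24 h, 2 libraries, or at 4 h, 3 libraries), Dps (24 h, 3 libraries, or 4 h, 3 libraries) or vehicle, called Control here (3 libraries). Dps and MnDps were each given intravenously at a dose of 18 mg/kg; for the Controls the labels state no time. No group carries a genetic change, and no ages are stated in the labels. The labels do not say that the libraries come from separate animals, so the p-values rest on the spread among 14 libraries, which may be technical.

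Libraries held between 15097093 and 42074942 counts, and 3 of them exceeded 30000000 (Dps 4 h replicates 1 and 2 and Control replicate 3). The 12 proximal tubule markers summed to 49687 to 57725 CPM at 24 h and 59439 to 71854 at 4 h after MnDps and to 53609 to 67161 at 24 h and 47373 to 52786 at 4 h after Dps, against 54590 to 57045 CPM in Controls, and most of each sum was the abundant gene Kap. The 11 others summed to 14421 to 17053 CPM at 24 h after MnDps, 13412 to 14713 at 4 h after MnDps, 15175 to 17064 at 24 h after Dps and 15377 to 16206 at 4 h after Dps, against 16466 to 18390 CPM in Controls. CPM, the normalised read count, puts every library on the same scaled size, and it is not corrected for transcript length unless that is stated. MnDps 4 h replicate 3 lay farthest from the other libraries on the second principal component, at 40.28, against 10.04 and 14.04 for its replicates. Of the 14 libraries it had the lowest level of Gclc, Gclm and Txnrd1 and the highest of Keap1, Srxn1 and Prdx1. Members called at 4 h after MnDps against Control, and the counts of other pathway genes there, are therefore also given without it. Single other genes are not all given this way.

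The genes lie on 7 chromosomes (GENCODE M21, GRCm38). Keap1 is at chr9:21229730-21239361 and Nfe2l2 at chr2:75675513-75704641, both on the minus strand. Prdx1 is at chr4:116685544-116700822, Srxn1 at chr2:152105516-152111376, Gclm at chr3:122245557-122270732 and Txnrd1 at chr10:82833951-82897712, all on the plus strand. Gclc is at chr9:77754535-77794485 on the plus strand, G6pdx at chrX:74409483-74429194 on the minus strand, Nqo1 at chr8:107388225-107403206 on the minus strand and Slc7a11 at chr3:49892526-50443614 on the minus strand. Txnrd1 overlaps Eid3 on the same strand and G6pdx overlaps Ikbkg on the other strand, so their counts can hold or lose reads of those neighbours. The labels and files do not state how the counting treated strand, or reads that match several copies of a gene.

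Promoter sequences of 9 members, all but Gclc, were in RefSeq's table for GRCm38.p6, which gives 250 bases before and 50 after each start. The core of the antioxidant response element, searched as TGACNNNGC on both strands, was in at least 1 window of Nfe2l2, Gclm, Txnrd1, Srxn1, Prdx1 and G6pdx. Of all 27025 genes with a RefSeq promoter, 14% have it in a window, and 12.4% of the 32851 windows hold it. The windows of Keap1, Nqo1 and Slc7a11 did not contain these letters. In Srxn1 the match begins 29 bases after the start and is not shown, and Txnrd1 has it in 1 of its 3 windows. The stretches below surround the matches before the start, to show the element in these members. It stands before Prdx1, called higher at 4 h after MnDps, and before Gclm and Txnrd1, called lower. With each library's trend on transcript length and GC content removed, Prdx1 (0.11) and Gclm (0.03) were not called. Txnrd1 was not called without MnDps 4 h replicate 3 (−0.17). Whether the element bears on these changes was not tested. The match is in capitals, read 5′ to 3′ along the gene, and appears as its reverse complement where the match is on the opposite strand, as in Prdx1, Gclm, Txnrd1 and G6pdx. A match of letters is a description and not a measured binding site.
Prdx1 (chr4:116685436-116685504, plus strand, GRCm38.p6): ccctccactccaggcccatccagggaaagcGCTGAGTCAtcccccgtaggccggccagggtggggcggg
Gclm (chr3:122245393-122245461, plus strand, GRCm38.p6): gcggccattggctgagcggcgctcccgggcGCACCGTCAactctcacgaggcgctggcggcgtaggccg
Txnrd1 (chr10:82859084-82859152, plus strand, GRCm38.p6): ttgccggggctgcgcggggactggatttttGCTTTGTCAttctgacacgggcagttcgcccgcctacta
Nfe2l2 (chr2:75704865-75704913, minus strand, GRCm38.p6): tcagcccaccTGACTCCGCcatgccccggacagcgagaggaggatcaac
G6pdx (chrX:74428899-74428967, minus strand, GRCm38.p6): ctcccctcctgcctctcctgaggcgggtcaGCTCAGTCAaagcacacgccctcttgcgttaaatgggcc

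The genes moved little and not together. Against Controls, edgeR's quasi-likelihood test called 5 members at 4 h after MnDps, with Keap1, Srxn1 and Prdx1 higher and Gclm and Txnrd1 lower, where 45.6% of all genes tested were called. Dps at 4 h had 2 members called, Keap1 higher and Prdx1 lower, where 14.6% of all genes were. Dps at 24 h had 1, Keap1 higher, where 20.1% of all genes were called. For MnDps at 24 h 0 of 9 members passed edgeR's adjusted threshold and 4 had an unadjusted p under 0.05, where 13.3% of all genes were called; DESeq2 called 0 as well. With 9 tested members these counts are near the shares of all genes and are not shown to be particular to the pathway. The members' median log2 fold change was −0.01 at 24 h after MnDps, −0.06 at 4 h after MnDps, −0.07 at 24 h after Dps and −0.12 at 4 h after Dps, beside 0.015, 0.005, 0.003 and −0.020 over all genes tested. The largest called change of a member was the 46.9% rise of Keap1 at 4 h after MnDps.

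**Figure D1:**
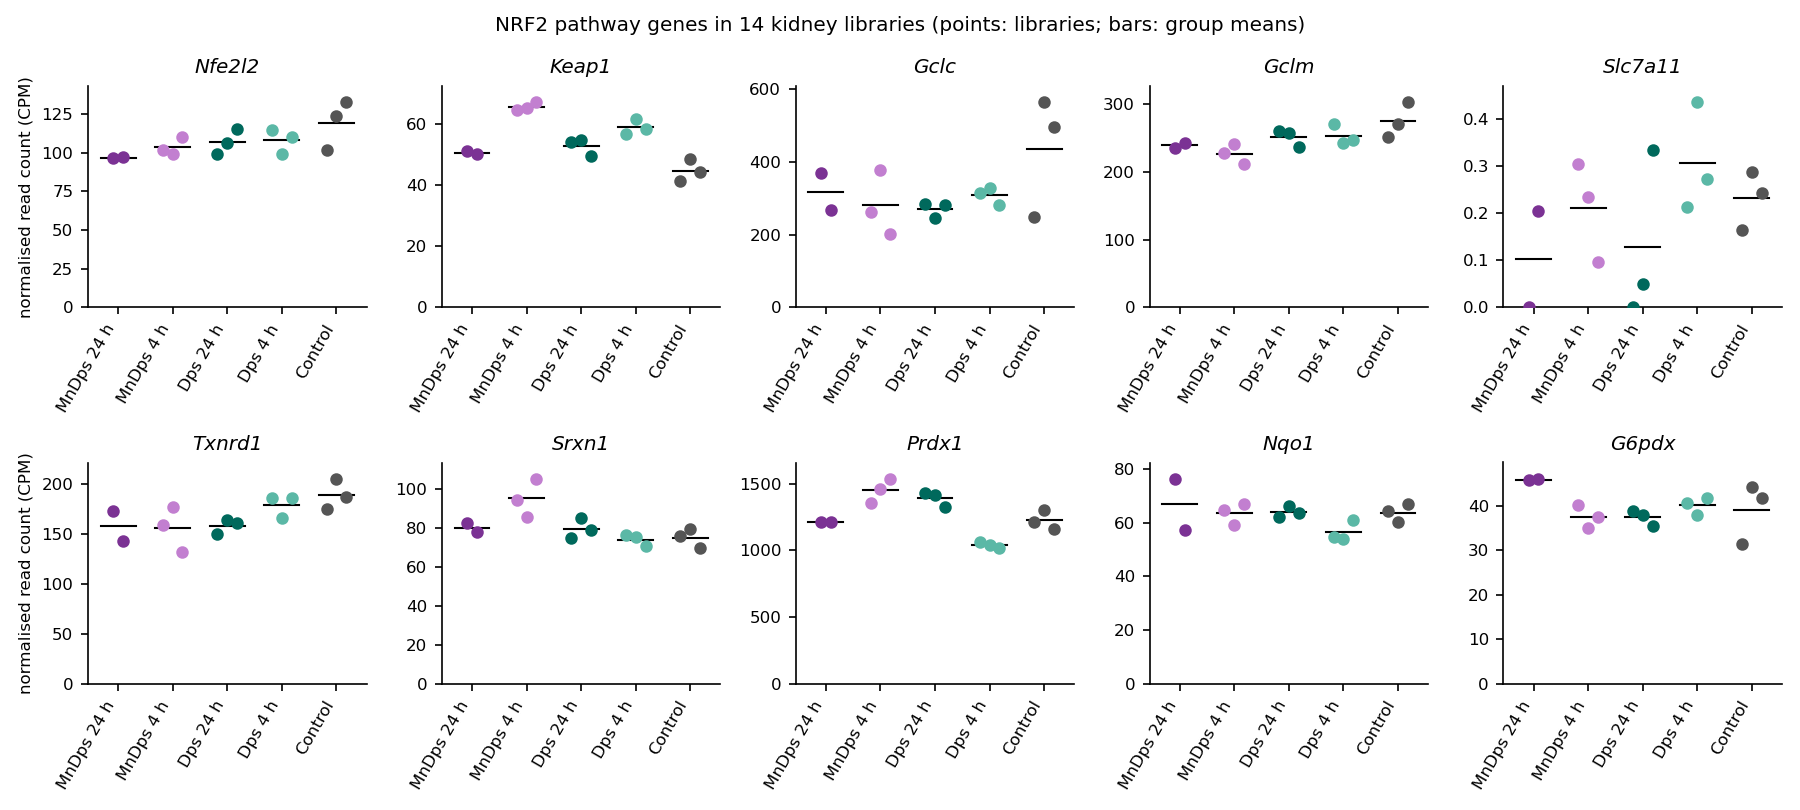
Normalised read count (CPM, vertical axis from 0) of the 10 genes in each library; points are libraries and bars are group means, with MnDps at 24 h and 4 h, Dps at 24 h and 4 h, and Control from left to right. Keap1 is higher in all 11 treated libraries than in any Control, the group mean of Prdx1 is highest at 4 h after MnDps and lowest at 4 h after Dps, and Gclc is spread over 248.7 to 563.5 CPM within the Controls alone.

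Levels of different genes were compared roughly, per kilobase of each gene's longest annotated transcript. The transcripts present in kidney may be shorter, so the order of genes with close values is uncertain. On this scale Prdx1 was the most abundant of the 10 in all 5 groups. Its means were 529 CPM per kb at 24 h and 632 at 4 h after MnDps, 605 at 24 h and 453 at 4 h after Dps, and 533 CPM per kb in Controls. Gclc came next, with 92.9 and 81.8 CPM per kb at 24 h and 4 h after MnDps, 79.1 and 89.9 after Dps, and 127 in Controls. Keap1 and G6pdx shared the places before the last, each between 12.4 and 18.1 CPM per kb. Slc7a11 came last in every group. Neighbouring genes in the middle of this order, Nfe2l2, Nqo1, Gclm and Txnrd1, changed places between groups, all 4 of them with means between 36.3 and 52.1 CPM per kb.

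Keap1, the sensor that holds NRF2 down, was called in 3 of the 4 comparisons against Control, the most of the 9 tested members. It stood at 51.0 and 50.2 CPM at 24 h after MnDps, at 64.5, 65.2 and 67.0 CPM at 4 h after MnDps, at 53.9, 54.8 and 49.6 CPM at 24 h after Dps and at 56.6, 61.5 and 58.5 CPM at 4 h after Dps, against 41.4, 48.3 and 44.1 CPM in Controls. All treated libraries were above all Controls, the 4 h libraries of each material were above its 24 h libraries, and the 3 MnDps libraries at 4 h were the highest of all. The log2 fold change against Control was 0.56 ± 0.07 (SE) at 4 h after MnDps (adjusted p = 3.31e-05), 0.24 ± 0.07 at 24 h after Dps (adjusted p = 0.0316) and 0.40 ± 0.07 at 4 h after Dps (adjusted p = 0.00125). MnDps at 24 h gave 0.18 ± 0.08, which missed the threshold (adjusted p = 0.153). Without MnDps 4 h replicate 3 the rise at 4 h was 0.54 and still called. The call at 24 h after Dps did not hold when Dps 24 h replicate 1 (0.21) or 2 (0.20) was left out, nor when Control replicate 1 (0.18) or 3 (0.23) was. It was also lost with a term for the 3 deepest libraries (0.24, adjusted p = 0.0703) and in a fit of only the groups compared (adjusted p = 0.0604).

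Keap1 was also lower at 24 h than at 4 h after MnDps, by 0.37 ± 0.08 on the log2 scale (adjusted p = 0.00475), a call that was lost without MnDps 24 h replicate 2 (−0.36, adjusted p = 0.0539). After Dps the difference between 24 h and 4 h was −0.16 ± 0.07 (adjusted p = 0.0890). The difference between MnDps and Dps was 0.16 at 4 h, with a 95% interval of −0.01 to 0.32, and −0.06 at 24 h, with an interval of −0.25 to 0.13. Neither was called, although the 4 h libraries of MnDps were all above those of Dps.

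Nfe2l2, which encodes NRF2, had 96.6 and 97.3 CPM at 24 h after MnDps, 101.6, 99.3 and 110.6 CPM at 4 h after MnDps, 99.0, 106 and 116 CPM at 24 h after Dps and 115, 99.5 and 110.2 CPM at 4 h after Dps, against 102, 124 and 133 CPM in Controls. The Controls spread widely, and their lowest library fell within every treated group but MnDps at 24 h. All 4 log2 fold changes against Control were below 0, at −0.30 ± 0.11 at 24 h after MnDps, −0.20 ± 0.09 at 4 h after MnDps, −0.16 ± 0.09 at 24 h after Dps and −0.14 ± 0.09 at 4 h after Dps, and none was called (adjusted p between 0.0692 and 0.328). The 4 comparisons use the same Controls. Without Control replicate 1 the values after MnDps were called, at −0.41 (24 h, adjusted p = 0.0220) and −0.32 (4 h, adjusted p = 0.0114).

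Slc7a11 encodes the cystine carrier that brings in the building block of glutathione. It had 0 and 5 counts at 24 h after MnDps, 7, 6 and 2 at 4 h after MnDps, 0, 1 and 7 at 24 h after Dps and 9, 18 and 5 at 4 h after Dps, against 3, 5 and 9 counts in Controls. Counts were near 0 in all libraries, and the groups overlap. For the 2 libraries with no count, a level of up to 0.189 CPM (MnDps 24 h replicate 1) and 0.160 CPM (Dps 24 h replicate 1) is allowed by the limit of 3 counts. Summed over a group, the level was 0.124 CPM at 24 h and 0.216 CPM at 4 h after MnDps, 0.133 CPM at 24 h and 0.313 CPM at 4 h after Dps, and 0.233 CPM in Controls, with exact 95% Poisson intervals of 0.0403 to 0.290, 0.121 to 0.356, 0.0575 to 0.262, 0.214 to 0.442 and 0.136 to 0.374 that cover counting error only. A difference of Slc7a11 between treated kidneys and Controls was not detectable at this depth.

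Slc3a2, the partner chain of that carrier, which it shares with other amino acid carriers, was well expressed by contrast. Its log2 fold change against Control was 0.10 ± 0.10 at 24 h after MnDps, 0.11 ± 0.09 at 4 h after MnDps, −0.04 ± 0.09 at 24 h after Dps and −0.26 ± 0.09 at 4 h after Dps, and edgeR called none; DESeq2 called the fall of Slc3a2 at 4 h after Dps (−0.26, adjusted p = 0.0352). At 4 h Slc3a2 was higher after MnDps than after Dps (0.36 ± 0.09, adjusted p = 0.00352), a call lost with the term for the deepest libraries (0.29, adjusted p = 0.0604).

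Gclc and Gclm encode the catalytic and the modifier subunit of glutamate-cysteine ligase, the rate-limiting enzyme of glutathione synthesis. Gclc had 369 and 268 CPM at 24 h after MnDps, 263, 377 and 201 CPM at 4 h after MnDps, 285, 246 and 282 CPM at 24 h after Dps and 314, 329 and 280.1 CPM at 4 h after Dps, against 249, 564 and 496 CPM in Controls. Replicates 2 and 3 of the Controls were above all 11 treated libraries, while replicate 1 was below 9 of them. With a biological coefficient of variation of 24.7%, the spread of Gclc between replicates was larger than that of 92.9% of genes tested. The log2 fold changes against Control were −0.46 ± 0.33 at 24 h after MnDps, −0.64 ± 0.29 at 4 h after MnDps, −0.69 ± 0.29 at 24 h after Dps and −0.50 ± 0.29 at 4 h after Dps, none of them called (adjusted p between 0.0988 and 0.385). Without Control replicate 1, 3 of these were called, at −0.93 (4 h after MnDps, adjusted p = 0.00396), −0.98 (24 h after Dps, adjusted p = 0.0141) and −0.79 (4 h after Dps, adjusted p = 0.0259). Without MnDps 4 h replicate 2 the value at 4 h after MnDps was called as well (−0.93, adjusted p = 0.0275).

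Gclm was steadier. It had 236 and 243 CPM at 24 h after MnDps, 228, 241 and 211 CPM at 4 h after MnDps, 261, 257 and 236 CPM at 24 h after Dps and 271, 243 and 247 CPM at 4 h after Dps, against 252, 271 and 303 CPM in Controls. The MnDps libraries at both times were below all Controls, and the Dps libraries overlapped with them. The log2 fold change against Control was −0.28 ± 0.08 at 4 h after MnDps (adjusted p = 0.0107) and −0.20 ± 0.09 at 24 h after MnDps (adjusted p = 0.147); after Dps it was −0.13 ± 0.08 at 24 h and −0.12 ± 0.08 at 4 h, neither called. The call at 4 h after MnDps was lost without Control replicate 3 (−0.21, adjusted p = 0.0725) and held without MnDps 4 h replicate 3 (−0.24). With each library's trend on transcript length and GC content removed, edgeR gave 0.03 for it (adjusted p = 0.809), not called.

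Txnrd1 encodes the cytosolic thioredoxin reductase, which passes electrons of NADPH to thioredoxin. Its level was 173 and 143 CPM at 24 h after MnDps, 159, 177 and 132 CPM at 4 h after MnDps, 149.7, 164 and 160.2 CPM at 24 h after Dps and 185, 165 and 186 CPM at 4 h after Dps, against 174, 205 and 187 CPM in Controls. Both groups at 24 h were below all Controls, and both groups at 4 h overlapped with them. The value at 4 h after MnDps was called, at −0.28 ± 0.10 (adjusted p = 0.0393), but without the outlying MnDps 4 h replicate 3 it was −0.17 (adjusted p = 0.165). It was also lost without Control replicate 2 (−0.23) or 3 (−0.28), on adding the deepest-library term (adjusted p = 0.0519) and with only the groups compared (adjusted p = 0.0839). The other 3 values were −0.26 ± 0.12 at 24 h after MnDps, −0.26 ± 0.10 at 24 h after Dps and −0.08 ± 0.10 at 4 h after Dps, none called. With only the groups compared, the fall of Txnrd1 at 24 h after Dps was called (−0.25, adjusted p = 0.0400).

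Prdx1, a peroxidase that reduces hydrogen peroxide with electrons from thioredoxin, gave the largest called difference between the injected materials among the members. It had 1215 and 1211 CPM at 24 h after MnDps, 1354, 1461 and 1535 CPM at 4 h after MnDps, 1430.5, 1415 and 1321 CPM at 24 h after Dps and 1061, 1037 and 1018 CPM at 4 h after Dps, against 1210.3, 1301.5 and 1159 CPM in Controls. At 4 h the MnDps libraries were all above the Controls and the Dps libraries all below them. Against Control the log2 fold change was 0.25 ± 0.07 at 4 h after MnDps (adjusted p = 0.0102) and −0.24 ± 0.07 at 4 h after Dps (adjusted p = 0.0334). The rise was still called without MnDps 4 h replicate 3. It was lost without Control replicate 3 (0.21, adjusted p = 0.0568), and the fall on dropping any of Dps 4 h replicates 1 to 3 (−0.24, −0.22 and −0.21) or Control replicates 1 or 2 (−0.25 and −0.20). With only the groups compared neither was called (adjusted p = 0.0559 after MnDps and 0.0715 after Dps), and the fall after Dps was not called with no count filter (adjusted p = 0.0747) or with the term for the deepest libraries (adjusted p = 0.0832). At 24 h edgeR did not call Prdx1 against Control, at −0.01 ± 0.08 after MnDps and 0.18 ± 0.07 after Dps, and DESeq2 called the value after Dps (0.19, adjusted p = 0.0360).

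Set against each other at 4 h, MnDps and Dps differed in 2 members, Prdx1 and Srxn1, both higher after MnDps, where 41.5% of all genes tested were called. For Prdx1 the means were 1450.0 ± 91.1 CPM after MnDps and 1039 ± 21.5 CPM after Dps (SD, n = 3 each), a log2 fold change of 0.48 ± 0.07 with adjusted p = 0.000117 in edgeR's fit over all genes. It was 0.42 without MnDps 4 h replicate 3 (adjusted p = 0.000522). At 24 h the difference was −0.20 ± 0.08 and not called (adjusted p = 0.234), with both MnDps libraries below the 3 of Dps. The change of the difference between MnDps and Dps, 24 h minus 4 h, was itself called for 2 members where 29.4% of all genes were (13.7% above 0, 15.7% below), and for Prdx1 it was −0.68 ± 0.11 (adjusted p = 0.000538).

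Between the times Prdx1 was called in opposite directions after the 2 materials. After Dps it was higher at 24 h than at 4 h (0.42 ± 0.07, adjusted p = 0.000234), the 1 member called in that comparison, where 44.6% of all genes were (22.0% higher, 22.6% lower). After MnDps it was lower at 24 h than at 4 h (−0.26 ± 0.08, adjusted p = 0.0300), 1 of 2 members called, with Keap1, where 21.8% of all genes were (10.1% higher, 11.7% lower). The call after MnDps was lost without MnDps 4 h replicate 2 (−0.25) or 3 (−0.22) or MnDps 24 h replicate 1 (−0.27) or 2 (−0.26), and with only the groups compared (−0.24, adjusted p = 0.163). With each library's trend on transcript length and GC content removed, the value after MnDps was −0.06 (adjusted p = 0.626), not called, while the rise after Dps was 0.41 (adjusted p = 0.000248).

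Srxn1 encodes sulfiredoxin, which repairs over-oxidised peroxiredoxins such as PRDX1. It had 82.5 and 78.1 CPM at 24 h after MnDps, 94.7, 86.0 and 105 CPM at 4 h after MnDps, 75.1, 85.4 and 79.0 CPM at 24 h after Dps and 76.4, 75.3 and 70.9 CPM at 4 h after Dps, against 75.8, 79.6 and 69.9 CPM in Controls. The 3 libraries at 4 h after MnDps were the highest of all 14, and the other groups overlapped with Controls. The log2 fold change at 4 h after MnDps was 0.35 ± 0.08 against Control (adjusted p = 0.00333) and 0.36 ± 0.08 against Dps at 4 h (adjusted p = 0.00255). Without MnDps 4 h replicate 3 these were 0.26 (adjusted p = 0.0185) and 0.26 (adjusted p = 0.0210). Dps at 4 h gave −0.02 ± 0.08 against Control. The change of the difference between MnDps and Dps, 24 h minus 4 h, was −0.35 ± 0.13 (adjusted p = 0.0425), a call that held without MnDps 4 h replicate 2 or Dps 24 h replicate 1 and was lost without any of the other 9 treated libraries, with values between −0.39 and −0.27. It was lost as well with no count filter (adjusted p = 0.0597) and with the term for the deepest libraries (adjusted p = 0.118).

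**Figure D2:**
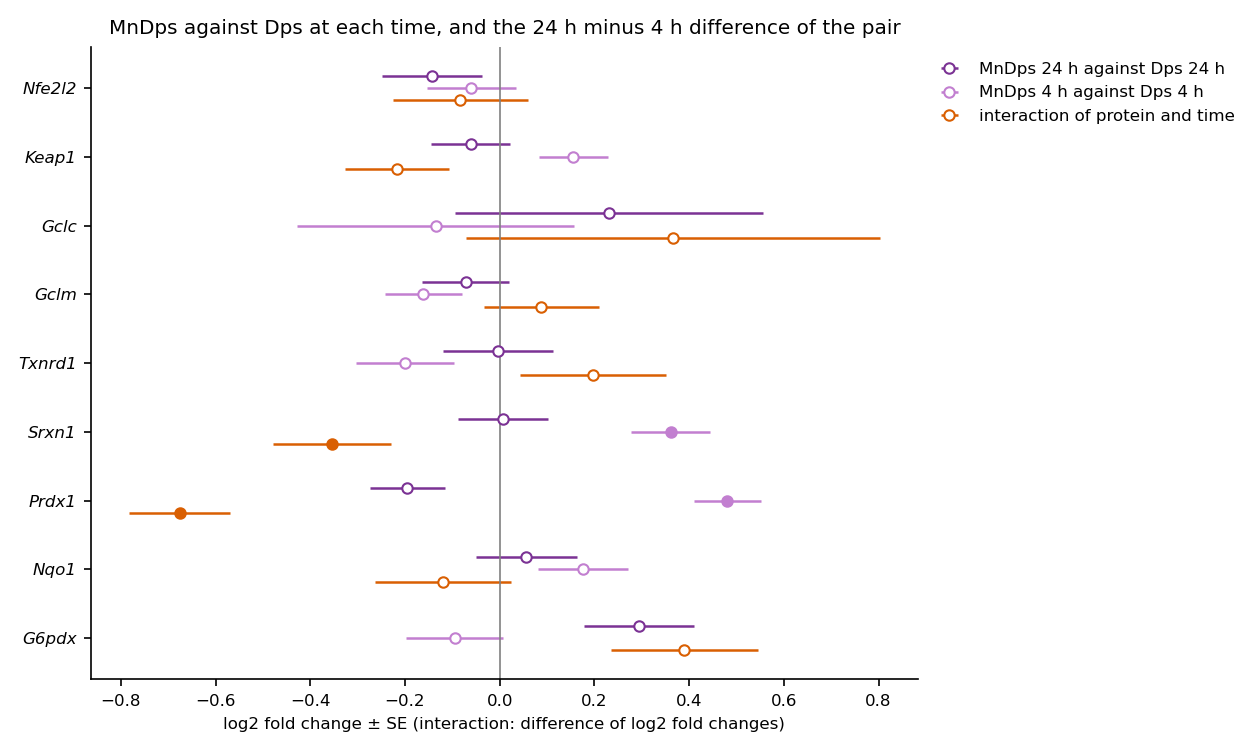
Log2 fold change of MnDps over Dps at 24 h and at 4 h, and the change of that difference (24 h minus 4 h), for the 9 tested members (horizontal axis), with lines of 1 SE to each side and filled points where the adjusted p is under 0.05. At 4 h the filled points are Prdx1 at 0.48 and Srxn1 at 0.36, for the change they are Prdx1 at −0.68 and Srxn1 at −0.35, and at 24 h no point is filled.

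Nqo1 encodes a quinone reductase that is widely used as a readout of NRF2. It had 76.3 and 57.3 CPM at 24 h after MnDps, 64.7, 59.2 and 67.0 CPM at 4 h after MnDps, 62.1, 66.3 and 63.7 CPM at 24 h after Dps and 54.5, 53.7 and 61.0 CPM at 4 h after Dps, against 64.2, 60.1 and 66.9 CPM in Controls. Every treated group overlapped with the Controls. The log2 fold changes were 0.06 (95% interval −0.18 to 0.30) at 24 h and −0.004 (−0.22 to 0.21) at 4 h after MnDps, 0.01 (−0.21 to 0.22) at 24 h and −0.18 (−0.40 to 0.04) at 4 h after Dps. The highest upper bound was 0.30 on the log2 scale, so larger rises lie outside these intervals and smaller ones do not.

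G6pdx encodes glucose-6-phosphate dehydrogenase, which makes NADPH. It had 45.7 and 46.0 CPM at 24 h after MnDps, 40.1, 35.1 and 37.4 CPM at 4 h after MnDps, 38.9, 37.8 and 35.5 CPM at 24 h after Dps and 40.5, 38.0 and 41.8 CPM at 4 h after Dps, against 31.4, 44.3 and 41.7 CPM in Controls. Both MnDps libraries at 24 h were above all others, by a small margin over 1 Control. The values against Control were 0.23 ± 0.12 at 24 h after MnDps, −0.06 ± 0.10 at 4 h after MnDps, −0.07 ± 0.10 at 24 h after Dps and 0.03 ± 0.10 at 4 h after Dps, none called. MnDps and Dps at 24 h gave a difference of 0.30 ± 0.12 (adjusted p = 0.214), in a comparison where 0 members passed edgeR's or DESeq2's adjusted threshold, 2 members had an unadjusted p under 0.05 (Prdx1 and G6pdx), and 0.815% of all genes were called (0.148% higher, 0.666% lower).

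**Figure D3:**
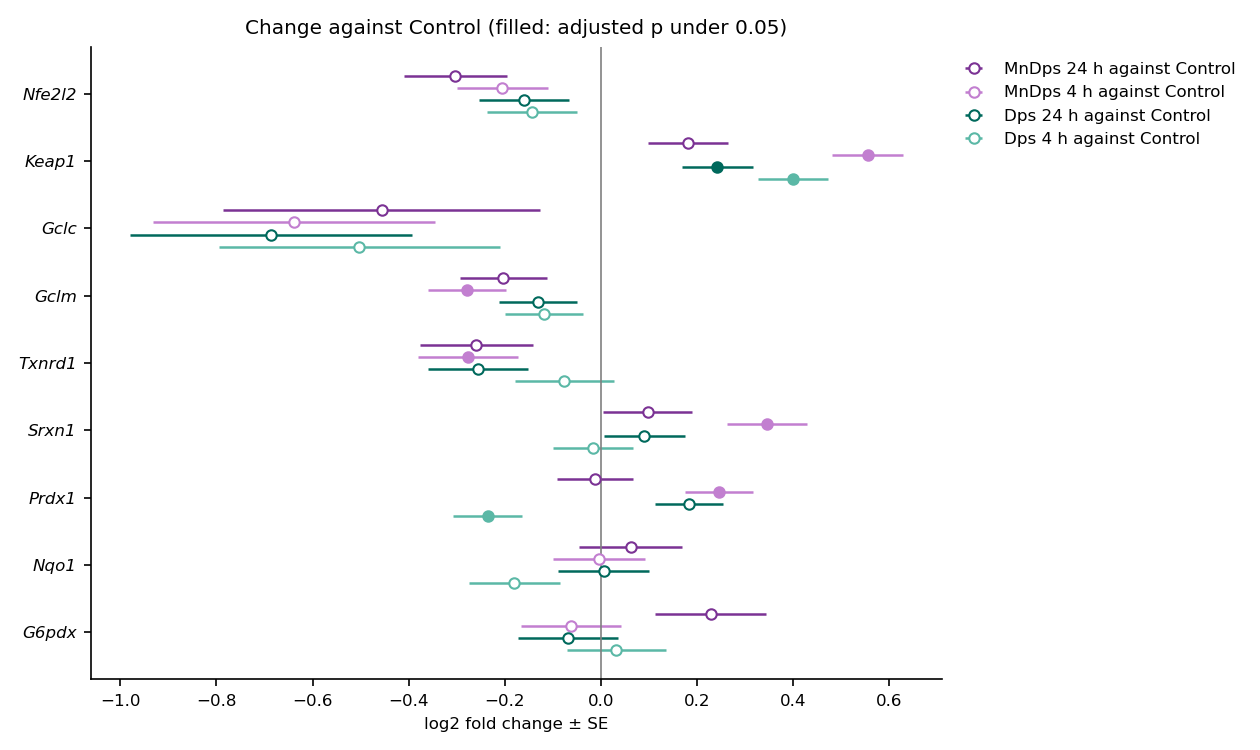
Log2 fold change against Control (horizontal axis) of the 9 tested members in each treated group, with lines of 1 SE to each side and filled points where the adjusted p is under 0.05. Keap1 lies right of 0 in all 4 groups, Gclc has the widest SE, and at 24 h after MnDps no point is filled.

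Across the 14 libraries the members did not rise and fall as a block. Of the 36 pairs among the 9 tested members, 17 had a Pearson correlation of log2 CPM above 0 and 19 below, with a median of −0.04, given as a description of libraries that share their groups and their composition. Gclc and Txnrd1 were the most alike (0.76), then Srxn1 and Prdx1 (0.71), while Gclm and Srxn1 were the most opposed (−0.73), followed by Keap1 and Gclm (−0.60). All correlations here use CPM from which the trend on transcript length and GC content was not removed. With that trend removed, Gclm at 4 h after MnDps was at 0.03 against Control, not called. The part of that trend in these correlations was not tested. Among all tested genes, those with the profile most like that of Keap1 were Ece2 (0.97), Foxp4 (0.96) and Dcaf11 (0.96), and those most like Prdx1 were BC031181 (0.98), Ndufab1 (0.98) and Timm8b (0.98). Srxn1 was closest to Plrg1 (0.96), Dcaf13 (0.94) and Phax (0.94), Gclm to Slc18b1 (0.94), Gnpat (0.92) and Atp6v1a (0.92), and Txnrd1 to Zfyve16 (0.89), Zfp935 (0.88) and Txlng (0.87). No other member is among these nearest genes. Only the nearest few of all tested genes are named, so this absence cannot show whether the members moved together.

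Other genes of the pathway were grouped into 6 lists of 52 genes, of which 50 were tested. At 4 h after MnDps 18 were higher and 8 lower than in Controls, with a median log2 fold change of 0.13; the genome as a whole had 22.9% higher and 22.7% lower. Dps at 4 h had 2 higher and 2 lower (median −0.11; genome 8.33% and 6.27%). MnDps at 24 h had 6 higher and 6 lower (median 0.11; genome 4.93% and 8.39%), and at 24 h after Dps 10 were higher and 7 lower (median 0.18; genome 9.64% and 10.4%). Single libraries moved these counts. At 24 h after MnDps they became 0 higher and 1 lower without MnDps 24 h replicate 1, 5 and 2 without replicate 2, and 2 and 5 without Control replicate 3. At 24 h after Dps they became 4 and 5 without Dps 24 h replicate 2, 3 and 4 without Control replicate 3, and 6 higher with 6 or 7 lower when Control replicate 1, Dps 24 h replicate 1 or its replicate 3 was left out. At 4 h after Dps, leaving out 1 library gave 0 to 1 higher and 1 to 4 lower. At 4 h after MnDps it gave 13 to 21 higher and 8 to 9 lower, with 14 and 8 without MnDps 4 h replicate 3 (median 0.063).

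Hmox1, heme oxygenase 1, is repressed by BACH1 and induced through NRF2 and other routes. It had 44.7 and 39.6 CPM at 24 h after MnDps, 97.7, 97.3 and 95.5 CPM at 4 h after MnDps, 27.2, 43.1 and 46.3 CPM at 24 h after Dps and 75.1, 84.0 and 87.0 CPM at 4 h after Dps, against 26.6, 57.2 and 45.2 CPM in Controls. All 6 libraries at 4 h were above every other library, and the 24 h groups overlapped with Controls. It rose at 4 h after MnDps (1.17 ± 0.24, adjusted p = 0.00193) and at 4 h after Dps (0.93 ± 0.23, adjusted p = 0.0204), a call that failed once Dps 4 h replicate 2 (0.92) or 3 (0.90), or Control replicate 3 (0.97), was dropped, and with only the groups compared (0.94, adjusted p = 0.0761). MnDps and Dps at 4 h differed by 0.24 ± 0.23 (adjusted p = 0.434), with all MnDps libraries above those of Dps. That difference was called with only the groups compared (0.24, adjusted p = 0.0323) and was −0.08 with the length and GC offset (adjusted p = 0.849). At 24 h the values against Control were −0.03 ± 0.27 after MnDps and −0.14 ± 0.24 after Dps.

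Among regulators, Maff, a small MAF partner, rose at 4 h after both materials, by 1.21 ± 0.28 after MnDps and 0.92 ± 0.28 after Dps (adjusted p = 0.00244 and 0.0354). The call after Dps failed when any of 4 libraries was left out, Dps 4 h replicate 1 (0.78) or 3 (0.94) and Control replicate 1 (0.76) or 2 (0.91). The deepest-library term ended it as well (0.86). At 4 h after MnDps Rbx1, the RING subunit of the ligase that KEAP1 serves, rose (0.39 ± 0.08), as did Sqstm1, the autophagy adaptor p62 that can sequester KEAP1 (0.35 ± 0.08). The kinase gene Gsk3b (−0.68 ± 0.10), the repressor Bach1 (−0.53 ± 0.11) and Mafg (−0.42 ± 0.09) fell. In all, 3 of 11 regulators were higher and 4 lower, where 22.9% of all genes tested were called higher and 22.7% lower. MnDps at 24 h had 4 of 11 lower, among them Bach1 (−0.63 ± 0.12), whose call was lost without MnDps 24 h replicate 2 (−0.57, adjusted p = 0.0602). Dps at 24 h had 5 lower, among them Mafg (−0.57 ± 0.10) and Mafk (−0.50 ± 0.11), and Rbx1 was higher (0.36 ± 0.08). Of all genes tested, 8.39% were called lower at 24 h after MnDps. At 24 h after Dps 10.4% were called lower and 9.64% higher.

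In the thioredoxin list Txn1, thioredoxin itself, had 345 and 336 CPM at 24 h after MnDps, 437, 461 and 609 CPM at 4 h after MnDps, 411, 415 and 356 CPM at 24 h after Dps and 335, 339.6 and 312 CPM at 4 h after Dps, against 280.5, 313 and 273 CPM in Controls. Libraries of every treated group but Dps at 4 h were all above Controls. It rose by 0.80 ± 0.11 at 4 h after MnDps (adjusted p = 3.91e-05) and by 0.45 ± 0.11 at 24 h after Dps (adjusted p = 0.0104), the call at 24 h failing when Dps 24 h replicate 2 (0.40) was left out, or Control replicate 3 (0.41). Txnip, the thioredoxin inhibitor, fell at 4 h after MnDps (−0.96 ± 0.20) and at 24 h after Dps (−0.97 ± 0.20). At 24 h after MnDps it also fell (−0.77 ± 0.22, adjusted p = 0.0405), a call lost without MnDps 24 h replicate 1 (−0.72) or 2 (−0.82) or Control replicate 3 (−0.62), with no count filter (−0.78), with the length and GC offset (−0.82) and with the term for the deepest libraries (−0.74). Prdx6, another peroxidase, rose at 4 h after MnDps (0.30 ± 0.07).

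Of 11 tested genes for glutathione supply and conjugation, 3 rose at 4 h after MnDps, the glutathione transferases Gsta2 (0.58 ± 0.18), Mgst1 (0.50 ± 0.10) and Gsta3 (0.43 ± 0.14). That is near the 22.9% of all genes tested that were called higher there. Gsta2 and Gsta3 lost their calls without MnDps 4 h replicate 3 (0.33 and 0.22) or Control replicates 1 (0.51 and 0.40) or 3 (0.54 and 0.40), and Gsta2 also with the term for the deepest libraries (0.53). Dps at 4 h had 1 lower, Gsta4 (−0.53 ± 0.15), a call that failed when Dps 4 h replicate 1 (−0.47) or 2 (−0.48) was left out, and likewise for Control replicate 1 (−0.51) or 2 (−0.46). The deepest-library term gave −0.43 for Gsta4, not called. At 4 h after Dps 6.27% of all genes tested were called lower. Gsta genes are close copies of each other, and reads they share could be split between them. In the NADPH list, Taldo1 (0.39 ± 0.08), Pgd (0.36 ± 0.08) and Tkt (0.29 ± 0.09), enzymes of the pentose phosphate pathway beside G6pdx, rose at 4 h after MnDps, the call of Tkt being lost without Control replicates 1 (0.26) or 3 (0.23). Idh1, the NADPH-making isocitrate dehydrogenase of the cytosol, fell at 4 h after Dps (−0.40 ± 0.09) and at 4 h after MnDps (−0.23 ± 0.09), where the call was lost without MnDps 4 h replicate 3 (−0.17) or Control replicate 1 (−0.17) and with only the groups compared (−0.24).

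In the detoxification list 4 of 10 rose and 1 fell at 4 h after MnDps, with the carbonyl reductases Cbr3 (1.70 ± 0.30) and Cbr1 (0.54 ± 0.11) and the biliverdin reductase Blvrb (0.38 ± 0.11) higher and Ugdh (−0.40 ± 0.08), which makes UDP-glucuronate, lower. Of all genes tested 22.9% were called higher and 22.7% lower there. Blvrb lost its call without MnDps 4 h replicate 3 (0.28) or Control replicate 1 (0.30). Cbr3 was a low gene, with 2.25 to 4.44 CPM at 4 h after MnDps against 0.631 to 1.21 CPM in Controls. The ferritin chains Ftl1 (0.52 ± 0.09) and Fth1 (0.43 ± 0.10) rose and the efflux pump Abcc2 (−0.58 ± 0.10) fell in the same comparison; both ferritin genes have many copies in the genome, so their counts are uncertain. At 24 h after MnDps the epoxide hydrolase Ephx1 rose (0.77 ± 0.17, adjusted p = 0.00928), a call lost without MnDps 24 h replicate 1 (0.72).

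**Figure D4:**
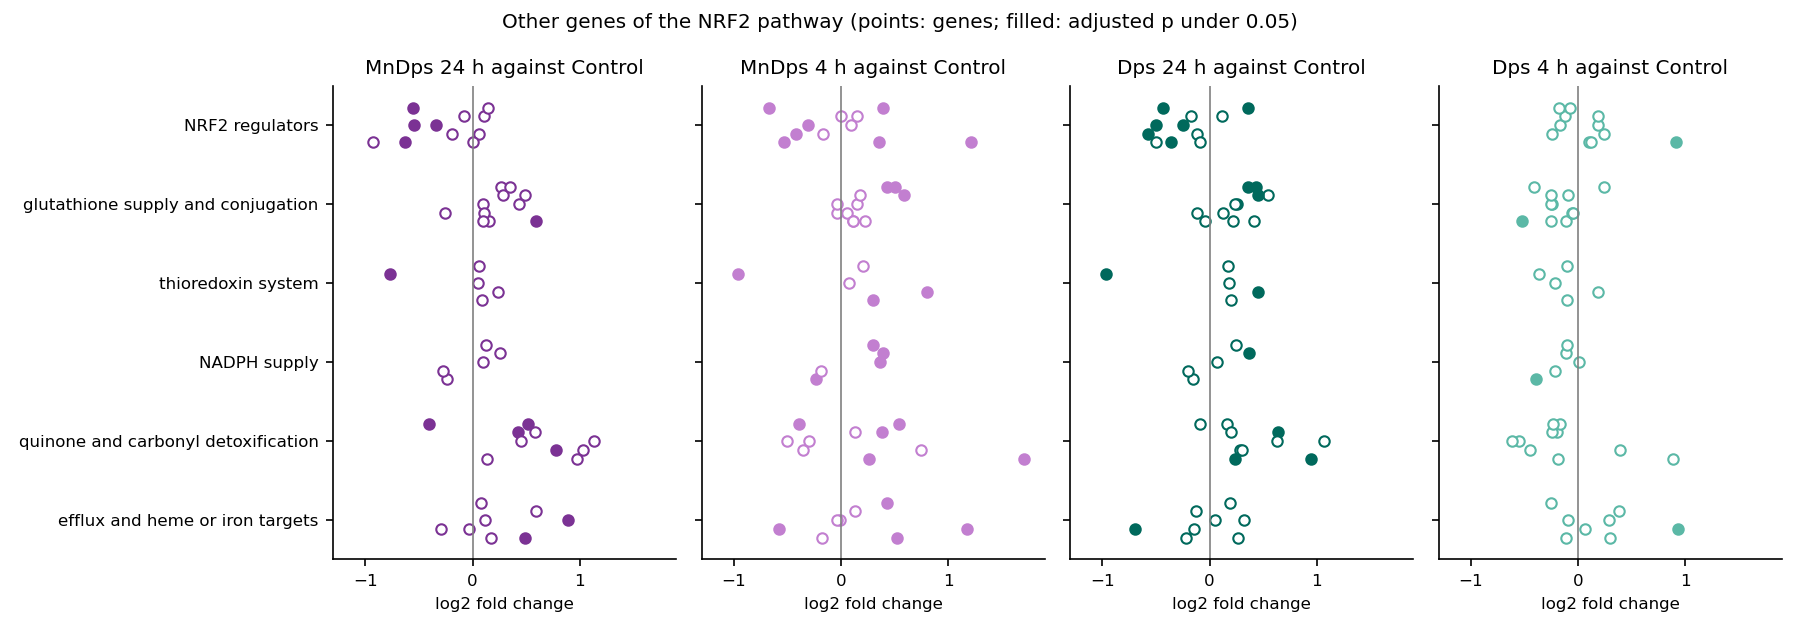
Log2 fold change against Control (horizontal axis) of the 50 other tested genes of the pathway, by list, in the 4 treated groups; each point is a gene, filled where the adjusted p is under 0.05. The panel for 4 h after MnDps has 26 filled points, 18 to the right of 0 and 8 to the left, and the panel for 4 h after Dps has 4.

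MnDps and Dps at 4 h differed in 30 of the 50 genes, 23 higher and 7 lower after MnDps (median 0.27; genome 20.8% and 20.7%). All 7 called genes of glutathione supply and conjugation were higher, among them Gsta3 (0.85 ± 0.14) and Gsta4 (0.75 ± 0.15). Fth1 (0.68 ± 0.10), Cbr1 (0.71 ± 0.11) and Txn1 (0.61 ± 0.11) were higher too, and Mafg (−0.66 ± 0.09), Abcc2 (−0.64 ± 0.10) and Bach1 (−0.63 ± 0.11) were lower. With the length and GC offset the split was 14 higher and 4 lower (median 0.09), and with the term for the deepest libraries it was 13 and 5. Without MnDps 4 h replicate 3 it was 19 and 5 (median 0.21). Of the 16 named genes called here 8 kept their calls with the offset, among them Gsta3 (0.90), Fth1 (0.46), Cbr1 (0.51), Mafg (−0.44) and Bach1 (−0.31), while Gsta4 (0.31, adjusted p = 0.0624), Txn1 (0.19, adjusted p = 0.0626) and Abcc2 (−0.20, adjusted p = 0.0899) did not. At 24 h 0 of the 50 passed edgeR's adjusted threshold, 10 had an unadjusted p under 0.05, and DESeq2 called 3 higher and 1 lower.

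Fold changes followed transcript length across genes, which are not independent replicates. Spearman's rho of log2 fold change with length over 14328 genes was −0.34 at 24 h after MnDps, −0.47 at 4 h after MnDps, −0.51 at 24 h after Dps and 0.17 at 4 h after Dps, and −0.63 for MnDps against Dps at 4 h, so short transcripts read higher in these comparisons except at 4 h after Dps, where long ones did. They followed GC content too, with rho of 0.42 at 24 h and 0.25 at 4 h after MnDps. After Dps it was 0.29 at 24 h and 0.04 at 4 h, and for MnDps against Dps at 4 h it was 0.25. When each library's trend on length and GC content was removed as an offset, 1 member was higher and 4 lower at 4 h after MnDps, in place of 3 and 2. Keap1 kept its rise (0.50, adjusted p = 1.61e-05) and Txnrd1 its fall (−0.29, adjusted p = 0.0328). Srxn1 (0.18, adjusted p = 0.0684) and Prdx1 (0.11, adjusted p = 0.213) lost their calls, and Gclm, the longest tested member at 5589 bases, turned to 0.03 (adjusted p = 0.809).

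With that offset Nfe2l2 (−0.39, adjusted p = 0.00454), Nqo1 (−0.35, adjusted p = 0.00723) and G6pdx (−0.25, adjusted p = 0.0481) were called lower at 4 h after MnDps. The differences between MnDps and Dps at 4 h kept their calls, at 0.39 for Prdx1 (adjusted p = 0.000793) and 0.28 for Srxn1 (adjusted p = 0.0105), and Keap1 was then called too (0.19, adjusted p = 0.0253). At 4 h after Dps Keap1 (0.31) and Prdx1 (−0.28) kept theirs, and at 24 h after Dps Keap1 gave 0.19 (adjusted p = 0.0580). Whether the trend with length comes from the kidneys or from the libraries was not tested.

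**Figure D5:**
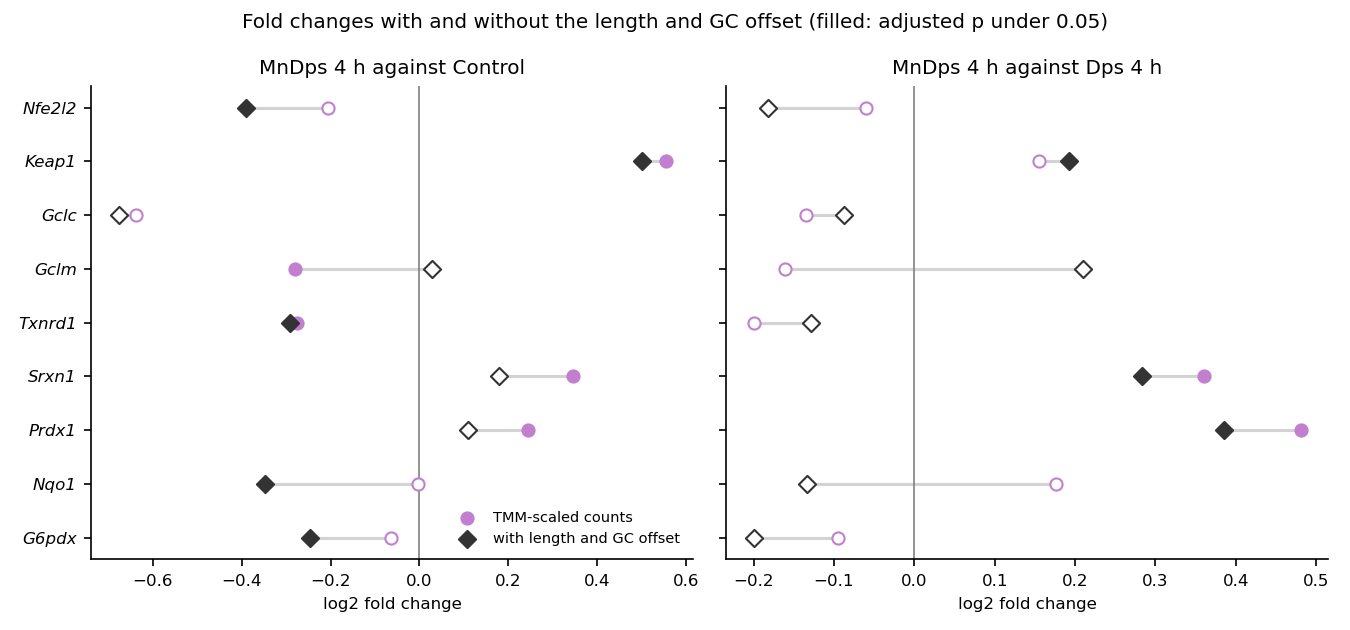
Log2 fold change (horizontal axis) of the 9 tested members at 4 h after MnDps, against Control and against Dps at 4 h, from scaled counts (circles) and with the length and GC offset (diamonds), filled where the adjusted p is under 0.05. Keap1 barely moves against Control (0.56 and 0.50), Gclm crosses 0 (−0.28 and 0.03), and Prdx1 and Srxn1 move towards 0 in both panels; against Dps the points of Gclm and Nqo1, uncalled either way, change sign.

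The other genes of the pathway shifted with the offset as well. Their split became 9 higher and 11 lower at 4 h after MnDps, 3 higher and 5 lower at 24 h after Dps and 3 higher and 16 lower at 4 h after Dps. Of the 24 named genes called at 4 h after MnDps 13 kept their calls, among them Hmox1 (0.81), Maff (0.87), Cbr3 (1.22), Txn1 (0.37), Txnip (−1.10), Pgd (0.36), Bach1 (−0.29), Mafg (−0.30) and Gsk3b (−0.32). Sqstm1 (0.16), Gsta2 (0.12), Mgst1 (0.13), Prdx6 (0.11), Tkt (0.19), Ugdh (−0.06), Abcc2 (−0.21), Fth1 (0.15), Ftl1 (0.04), Taldo1 (−0.02) and Blvrb (−0.01) did not. The rise of Txn1 at 24 h after Dps (0.21, adjusted p = 0.0829) was not called, while the fall of Txnip (−0.995) was. For Dps at 4 h the calls of Hmox1, Maff, Gsta4 and Idh1 held, and Slc3a2 was called lower (−0.34, adjusted p = 0.00582).

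Markers of other cells moved with the groups. In bulk tissue, fewer cells of a type and less RNA per cell cannot be told apart. Neutrophil markers summed to 1.39 to 1.43 CPM at 24 h and 10.4 to 18.5 at 4 h after MnDps and to 1.49 to 2.63 at 24 h and 4.93 to 7.37 at 4 h after Dps, against 0.573 to 1.32 CPM in Controls. Of the 8 measured markers 3 could be tested, and all 3 were called higher at 4 h after both materials. Among them S100a8 had 0 to 2 counts in Controls and 62 to 102 at 4 h after MnDps. For S100a9 the counts were 0 to 3 and 105 to 178. Both passed the count filter through the 4 h libraries, so that outcome was largely set by the filter. Elane was at 0 in every library. Endothelial markers summed to 536 to 592 and 296 to 360.3 CPM at 24 h and 4 h after MnDps and to 477 to 547 and 262 to 362 after Dps, against 408 to 451 CPM in Controls. At 4 h after each material 5 of 8 were called lower and 1 higher. Of all genes tested 22.7% were called lower and 22.9% higher at 4 h after MnDps, and 6.27% and 8.33% at 4 h after Dps. Macrophage markers summed to 189.7 to 196 and 99.2 to 109 CPM at 24 h and 4 h after MnDps and 186 to 201 and 98.1 to 110.0 after Dps, against 123 to 151 CPM in Controls. At 24 h 5 of 8 were called higher after MnDps and 6 after Dps, where 4.93% and 9.64% of all genes tested were. At 4 h 4 were called lower and 1 higher after MnDps, and 3 lower after Dps. Adipocyte markers summed to 57.0 to 146.6 CPM at 24 h and 102.8 to 168.2 at 4 h after MnDps and to 103.5 to 169.6 at 24 h and 128.6 to 170.9 at 4 h after Dps, against 44.6 to 82.5 CPM in Controls. Called higher were 2 of 6 at 4 h after MnDps, 3 at 4 h after Dps and 1 at 24 h after Dps. The shares of all genes called higher there were 22.9%, 8.33% and 9.64%. T cell markers summed to 4.29 to 4.30 and 2.13 to 2.99 CPM at 24 h and 4 h after MnDps and to 3.74 to 5.83 and 2.60 to 2.71 after Dps, against 3.69 to 4.94 CPM in Controls. Markers of other nephron segments summed to 4251 to 4304 and 4591 to 5118 CPM at 24 h and 4 h after MnDps and to 4092 to 4820 and 4306 to 4913 after Dps, against 4890 to 6056 CPM in Controls. Of the 12 proximal tubule markers 7 were called lower and 1 higher at 4 h after MnDps, and 3 lower at 4 h after Dps. At 24 h after Dps 2 were called lower and 1 higher (10.4% and 9.64% of all genes). At 24 h after MnDps 0 passed edgeR's adjusted threshold. The part of these cells in the changes of the NRF2 pathway genes was not tested.

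Genes of the integrated stress response, which shares targets such as Slc7a11 with NRF2, were higher in 6 of 10 cases at 4 h after MnDps (median 0.70; genome 22.9% higher) and in 3 of 10 at 4 h after Dps (median 0.45; genome 8.33% higher). At 24 h after MnDps 1 was higher and 1 lower (genome 4.93% and 8.39%), and at 24 h after Dps 3 were higher and 2 lower (genome 9.64% and 10.4%). These counts come from edgeR's fit over all libraries and are not given here under the alternatives. Some genes of this list were low, with Control means of 1.23 CPM for Atf3, 1.10 for Trib3 and 0.587 for Chac1.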

How the data were processed

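Per the labels' protocols, kidney RNA went into stranded mRNA libraries (Illumina TruSeq) that were sequenced from both ends. The submitters' processing notes name STAR, featureCounts and the mm10 build; versions and settings of the counting were not given in the sources used here. What the authors deposited are unnormalised counts of reads for each gene symbol, with totals of 15097093 to 42074942 per library, and the labels gave each library its group. Replicate numbers only name libraries. Replicates differed by more than counting error (chi-square per degree of freedom 8.11 to 30.9).

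From these counts, edgeR 4.0.16 (R 4.3.3) kept 14854 genes with filterByExpr, scaled by TMM, and fitted 5 group means over 14 libraries, leaving 9 residual degrees of freedom and a common biological coefficient of variation of 10.7%. Its robust quasi-likelihood F-test was adjusted by Benjamini and Hochberg's method over all genes tested, with calls at an adjusted p under 0.05. The SE is the log2 fold change divided by the square root of F, and 95% intervals use 9 degrees of freedom. The test itself uses more degrees of freedom, so these intervals are wider than its p-values imply. For Keap1, MnDps against Dps at 4 h, the test's unadjusted p was 0.0477 while the interval of −0.01 to 0.32 includes 0. There were 9 comparisons. Alternatives were DESeq2 1.42.0, its size factors, no or a stricter filter, only the groups compared, an offset for length and GC content (known for 96.5% of genes tested), a term for libraries over 30000000 counts, and leaving out each library.

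All members are named. From each list of other pathway genes, up to 3 called genes with the largest rise and 3 with the largest fall could be named, plus Hmox1, Txn1 and Slc3a2. For members called against Control, the 3 genes of highest correlation are named. The members and lists were chosen with earlier results of these data known.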

Additional observations from a re-analysis of the deposited data

Results flagged for a closer look

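The difference between MnDps and Dps changed between the times for 2 of the 9 tested members, by a test of that change itself in edgeR's fit over all genes. For Prdx1 the change of the log2 fold change, 24 h minus 4 h, was −0.676 (SE 0.11, adjusted p = 0.000538), with MnDps minus Dps at −0.20 at 24 h and 0.48 at 4 h. For Srxn1 it was −0.354 (SE 0.13, adjusted p = 0.0425), with 0.01 at 24 h and 0.36 at 4 h. With the length and GC offset the values were −0.47 for Prdx1 (adjusted p = 0.00590) and −0.33 for Srxn1 (adjusted p = 0.0571), and Keap1 (−0.35, adjusted p = 0.0145) and G6pdx (0.45, adjusted p = 0.0374) were called too. G6pdx was also called with only the groups compared (0.39, adjusted p = 0.0189) and without MnDps 4 h replicate 1 (0.44, adjusted p = 0.0484); neither gene was called in the fit given first (−0.22 and 0.39). Of all genes tested 29.4% were called in the same test.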

How the results depend on the processing

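No paired analysis was possible because the labels give no replicate numbers shared between groups. Over 7 alternatives other than left-out libraries, 512 of 567 member values kept direction and side of the threshold, 16 lost a call and 12 gained 1. Another 25 changed sign without a call in either fit, 15 of them with the length and GC offset, 6 with the deep-library term, 2 with no filter and 2 with the stricter one. With the offset the values that turned and were called in 1 of the fits were Gclm (0.028), Taldo1 (−0.022) and Blvrb (−0.012) at 4 h after MnDps against Control and Gclm at 24 h against 4 h after Dps (0.284, adjusted p = 0.0116); the cause was not tested.

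The count of members called moved by over 1.5 times as follows. At 4 h after Dps against Control it was 1 with no filter, with the deep-library term and with only the groups compared, in place of 2. At 24 h after Dps it was 0 with the offset and with the deep-library term and 2 with DESeq2 (Keap1 and Prdx1), in place of 1, and with only the groups compared the 1 called was Txnrd1 and not Keap1. At 4 h after MnDps it was 3 with only the groups compared, in place of 5. For 24 h against 4 h it was 2 (offset) and 3 (groups compared) after Dps, in place of 1, and 1 (groups compared) after MnDps, in place of 2. For the change of the MnDps-Dps difference it was 1 with no filter and with the deep-library term, in place of 2. Smaller moves were 3 for that change with the offset (G6pdx, Keap1 and Prdx1) and with only the groups compared (G6pdx, Prdx1 and Srxn1), in place of 2, 3 for MnDps against Dps at 4 h with the offset, in place of 2, and 4 at 4 h after MnDps with the deep-library term, in place of 5.

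Over all genes the offset called 3728 at 4 h after Dps (2168 without it), 1493 at 24 h after Dps (2979), 1170 at 24 h after MnDps (1978), 3739 for MnDps against Dps at 4 h (6158) and 2403 for the change of that difference (4368). The deep-library term gave 1637 at 24 h after Dps, 1033 at 24 h after MnDps, 3558 and 68 for MnDps against Dps at 4 h and 24 h (121 at 24 h without it) and 4225 for 24 h against 4 h after Dps (6626). For MnDps against Dps at 24 h DESeq2 gave 569 and the groups compared 727, which also gave 1878 for 24 h against 4 h after MnDps (3242). DESeq2 called 3 other pathway genes higher and 8 lower at 4 h after Dps, in place of 2 and 2.

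Leaving out 1 library gave, against Control, 300 to 2562 genes and 0 to 1 members at 24 h after MnDps, 4956 to 6814 and 2 to 7 at 4 h after MnDps (7 without Control replicate 1, 2 without Control replicate 3), 843 to 3529 and 0 to 1 at 24 h after Dps, and 1435 to 1849 and 1 to 2 at 4 h after Dps. For MnDps against Dps it gave 5 to 45 genes and 0 members at 24 h, and 4670 to 5948 and 2 to 3 at 4 h. For 24 h against 4 h it gave 1336 to 3176 and 0 to 2 after MnDps and 5203 to 5918 and 1 after Dps, and for the change of the difference 2724 to 4598 and 1 to 2. Where 1 library of MnDps at 24 h remained, it was assumed to vary like the others. The depth of these libraries does not resolve Slc7a11.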
